A study of Mus musculus with 6 samples.

Results

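The 10 genes described here encode the calcineurin-NFAT pathway in NMuMG, a line of epithelial cells taken from the mammary gland of the mouse, and were chosen by name as rows of the deposited count table: the NFAT factors Nfatc1, Nfatc2, Nfatc3, Nfatc4 and Nfat5, the calcineurin subunits Ppp3ca, Ppp3cb and Ppp3r1, and the calcineurin regulators Rcan1 and Rcan2. They are 10 of 18512 entries. The cells had received the vehicle DMSO, 5 ng/ml of TGF-β, or the same dose of TGF-β together with 2APB at 50 uM, a modulator of store-operated calcium entry, and each of the 3 groups has 2 replicates. No group received 2APB alone, so its effect without TGF-β could not be analysed here. Oligo-dT selected RNA was sequenced as single-end reads, and the study's text gives a treatment of 24 h in one place and 2APB ahead of TGF-β in another, which the counts could not settle. The study calls the replicates biological, and the p-values measure the spread between these libraries of 1 cell line.

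Calcineurin is a phosphatase that calcium and calmodulin switch on. It consists of a catalytic subunit, encoded by Ppp3ca, Ppp3cb or Ppp3cc, and a calcium-binding regulatory subunit, encoded by Ppp3r1 in most tissues. When calcium stores of the endoplasmic reticulum empty, STIM proteins open ORAI channels of the plasma membrane, and the calcium that enters activates calcineurin. Calcineurin then removes phosphates from NFATc1 to NFATc4, which move to the nucleus and bind DNA at sites with the core GGAAA. NFAT5 lacks the calcineurin binding region of the others and responds to osmotic stress. RCAN1 and RCAN2 bind and restrain calcineurin, and the short RCAN1 transcript is itself switched on by NFAT, so it is often read as a record of calcineurin-NFAT activity. In carcinoma cells, NFAT factors have been linked to motility and invasion.

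Rcan1 has separate start sites for its long and short transcripts, and both are shown because the short one is the pathway's usual readout while the counts pool the transcripts of the gene. The 250 bases before each start on the minus strand come from RefSeq on GRCm38.p6, with the GGAAA core, or its reverse complement TTTCC, in capitals. The upstream start has the window chr16:92466170-92466419 and the internal start, 66091 bases further along the gene, has chr16:92400079-92400328.

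Rcan1, upstream start: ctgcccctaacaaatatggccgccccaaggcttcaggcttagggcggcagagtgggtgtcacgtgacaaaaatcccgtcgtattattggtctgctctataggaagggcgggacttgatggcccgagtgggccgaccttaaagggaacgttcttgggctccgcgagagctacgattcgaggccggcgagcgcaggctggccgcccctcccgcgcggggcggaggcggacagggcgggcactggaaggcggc

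Rcan1, internal start: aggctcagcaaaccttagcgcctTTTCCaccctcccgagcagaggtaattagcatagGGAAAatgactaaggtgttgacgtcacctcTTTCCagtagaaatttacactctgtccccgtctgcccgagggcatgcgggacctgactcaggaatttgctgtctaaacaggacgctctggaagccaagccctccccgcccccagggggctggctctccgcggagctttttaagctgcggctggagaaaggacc

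The window of the upstream start held 0 copies of the core and that of the internal start held 3, at 227, 193 and 163 bases before the start. Among 32851 mouse promoters of the same length, 55.6% held the core on either strand at least once and 6.39% held it 3 times or more. A match describes the letters only, since binding was not measured here.

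Nfatc2 was the tested NFAT gene with the largest fitted change in these libraries, and its starts are shown for that reason. They lie 11292 bases apart on the minus strand of chromosome 2. The windows are chr2:168601658-168601907 for the upstream start and chr2:168590366-168590615 for the internal one, with capitals as above.

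Nfatc2, upstream start: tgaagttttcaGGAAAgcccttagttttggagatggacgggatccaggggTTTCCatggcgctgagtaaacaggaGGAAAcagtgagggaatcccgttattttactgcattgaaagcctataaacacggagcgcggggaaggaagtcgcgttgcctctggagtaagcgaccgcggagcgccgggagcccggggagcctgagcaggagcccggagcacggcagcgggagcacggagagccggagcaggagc

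Nfatc2, internal start: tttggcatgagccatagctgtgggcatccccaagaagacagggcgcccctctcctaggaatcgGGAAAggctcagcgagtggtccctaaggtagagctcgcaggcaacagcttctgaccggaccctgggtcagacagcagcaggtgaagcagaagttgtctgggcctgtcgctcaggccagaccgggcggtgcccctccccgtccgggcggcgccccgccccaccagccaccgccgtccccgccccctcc

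The upstream Nfatc2 window held 3 copies, at 239, 200 and 175 bases before the start, and the internal window held 1, at 187 bases. In all, 13 RefSeq windows of 8 members were searched, and 8 of the 13 windows held at least 1 copy, with 3 copies also before a start of Nfatc4 and of Ppp3cb. Windows of Nfatc1 were not searched, and none was available for Ppp3ca.

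The libraries held 71840570 to 79473182 counts, and all values were even numbers. Values below are counts scaled to the mean library with edgeR's TMM factors (normalized counts). Of the 10 members, 9 reached the mean of 20 normalized counts needed for a test. Changes were tested over 13353 genes by the quasi-likelihood F-test of edgeR, and a gene was called at a Benjamini-Hochberg adjusted p (FDR) of 0.05 or less. The epithelial markers Krt8 and Krt18 were abundant in every library, with at least 234425 and 161005 normalized counts, and Cdh1 held 35058 to 91180, whereas Krt5, Krt14 and Esrp1 held at most 4 and Epcam 51 to 163. Epithelial markers also moved with the groups. Krt19 had group means of 43625 in DMSO, 10643 after TGF-β and 2564 after TGF-β+2APB, and Cldn4 of 4.08, 728 and 1808. Of 6 epithelial markers tested, 3 were called higher and 3 lower with TGF-β, and all 7 mesenchymal markers tested were called higher. Markers of other cell types moved as well. The 9 liver-type secreted protein genes other than Apob summed to 94158 and 85240 normalized counts in DMSO and to 154 to 1295 in the other libraries. Apob itself, the most abundant gene of that list, held 368528 and 364439 in DMSO, 198639 and 329290 after TGF-β, and 531964 and 592557 after TGF-β+2APB, so that the whole list was highest with 2APB. The muscle list summed to 470 and 523 in DMSO and 9515 to 11178 elsewhere, mostly through Tnnt2. The endothelial list summed to 18.6 to 62.3 without 2APB and to 273 and 428 with it. Of these last sums Vwf alone held 245 and 379, and Pecam1, Cdh5, Kdr and Tek each held at most 25.6. The neuronal list summed to 80.6 and 86.8 in DMSO, 185 and 224 after TGF-β, and 327 and 306 after TGF-β+2APB, where Map2 alone held 257 and 233. These lists moved with every comparison below, and their part in the results was not tested.

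**Figure D1:**
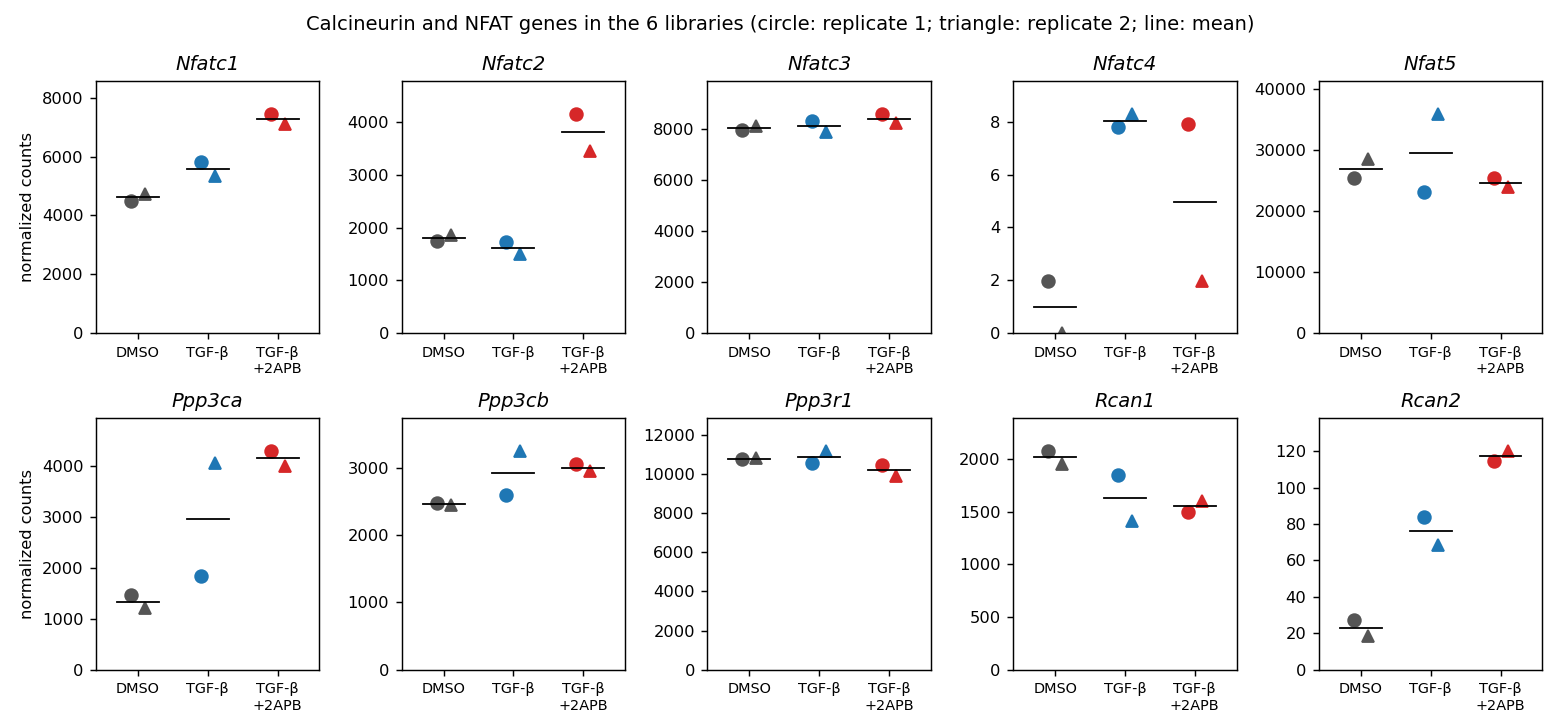
Normalized counts (y axis, from 0, own scale per panel) of the 10 members in the 6 libraries, with replicate 1 as a circle, replicate 2 as a triangle and the group mean as a line. Nfatc2 lies at 1507 to 1859 without 2APB and at 3457 and 4154 with it, and the TGF-β replicates of Ppp3ca, at 1847 and 4057, stand far apart.

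Adding 2APB to TGF-β raised Nfatc2 2.36-fold and Nfatc1 1.31-fold, and no other member was called in that comparison. TGF-β alone raised Nfatc1, Ppp3ca and Rcan2, and TGF-β with 2APB raised Nfatc1, Nfatc2, Ppp3ca and Rcan2 over DMSO. No member was called lower in any of the 3 comparisons by edgeR or by DESeq2, and at an unadjusted p under 0.05 edgeR gave 1, Rcan1 in TGF-β+2APB against DMSO. The count was 3 of 9 members between TGF-β and DMSO, where 41.5% of all tested genes were called (21.8% higher and 19.7% lower). It was 2 of 9 between TGF-β+2APB and TGF-β, against 17.5% of all genes (6.58% higher and 10.9% lower), and 4 of 9 between TGF-β+2APB and DMSO, against 52.8% (25.6% higher and 27.2% lower). As shares, 33.3%, 22.2% and 44.4% of the members tested lie near these backgrounds. The groups did not overlap for 6, 4 and 9 of the 9 members, where 72.5%, 58% and 86% of all genes had groups that did not overlap. The median log2 fold change of the members was 0.13, 0.05 and 0.29, and that of all genes lay between -0.01 and 0.00. The comparisons share libraries, so their values are set side by side and are not independent.

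**Figure D2:**
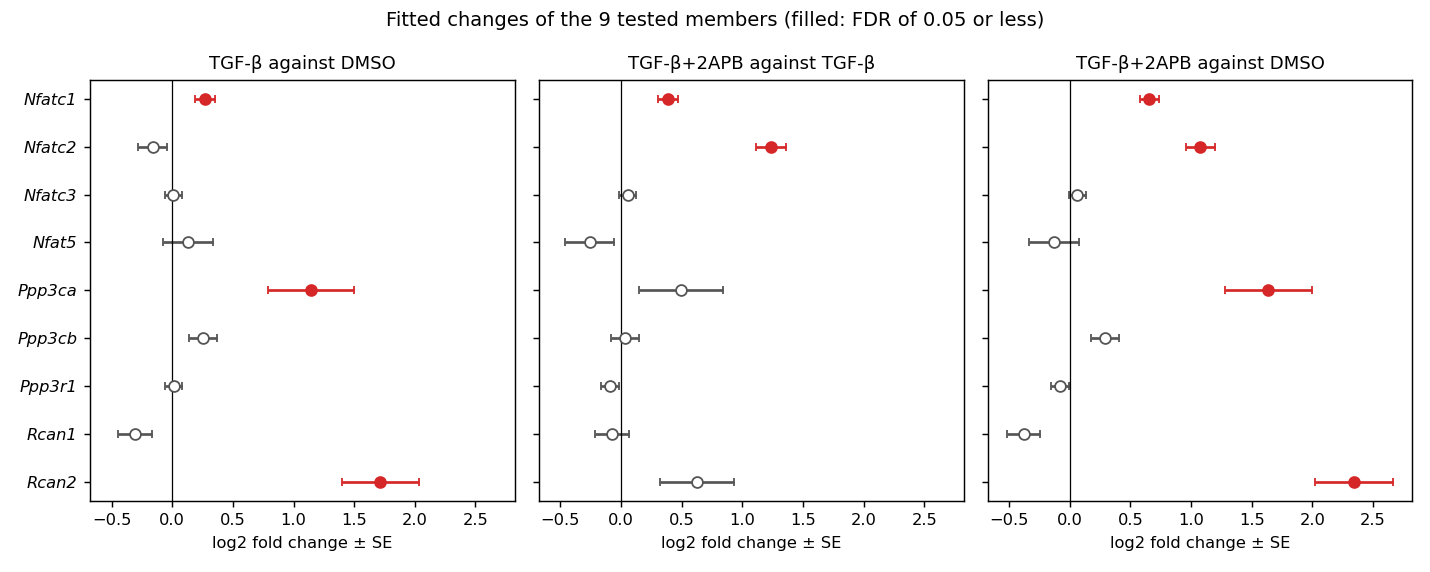
Fitted log2 fold changes (x axis) with their standard errors for the 9 tested members in the 3 comparisons, filled and red where the FDR was 0.05 or less. Nfatc1 is called in all 3 panels, Nfatc2 in the 2 with 2APB in the first group, and the called members all lie to the right of 0.

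Nfatc2 encodes NFAT1, a calcineurin-regulated factor best known from lymphocytes, and spans chr2:168476410-168601657 on GRCm38. It held 1753 and 1859 normalized counts in the DMSO replicates, 1720 and 1507 after TGF-β, and 4154 and 3457 after TGF-β+2APB. Both libraries with 2APB lay above all 4 without it. Nfatc2 rose by a log2 fold change of 1.24 (SE 0.12, FDR = 0.00471 with edgeR) over TGF-β and of 1.07 (SE 0.12, FDR = 0.000903) over DMSO. TGF-β alone gave -0.16 (SE 0.12, FDR = 0.325). The call over TGF-β held in all 10 other settings and in each of 6 fits that left out 1 library, where the log2 fold change ran from 1.07 to 1.36. Since Nfatc2 is high in leukocytes, their markers are given beside it. Of the leukocyte markers, 8 genes summed to 2796 normalized counts in TGF-β+2APB replicate 2, mostly through Ptprc (742), Itgam (1004) and Csf1r (969), and to 162 to 613 in the other libraries, and the T cell markers Cd3e, Cd3g, Cd4 and Cd8a each held between 0 and 14 counts per library. In TGF-β+2APB replicate 1, Csf1r (168) and Cd79a (29.7), another of these markers, also lay above the 4 libraries without 2APB. The highest values there were 151 and 18.7. Ptprc (35.6) and Itgam (11.9) of replicate 1 lay below those 4 libraries. Nfatc2 was higher in replicate 1 than in replicate 2 of the TGF-β+2APB group, and without replicate 2 the log2 fold change over TGF-β was 1.36. The part of leukocytes in the Nfatc2 values was not tested. In bulk RNA, a change in the number of cells that express a gene and a change in RNA per cell cannot be told apart.

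Nfatc1, a factor whose own transcription NFAT is known to raise in lymphocytes and osteoclasts, rose in steps. Its normalized counts were 4497 and 4744 with DMSO, 5811 and 5331 after TGF-β, and 7450 and 7115 after TGF-β+2APB. The 3 groups did not overlap. The log2 fold change was 0.27 for TGF-β over DMSO (SE 0.08, FDR = 0.0417), 0.39 for TGF-β+2APB over TGF-β (SE 0.08, FDR = 0.0279) and 0.66 for TGF-β+2APB over DMSO (SE 0.08, FDR = 0.00126). The last of these held in all 10 other settings and all 6 fits without 1 library. The smaller steps were less secure. The call for TGF-β was kept in 6 of 10 settings (FDR from 0.0084 to 0.0869) and in 1 of 6 fits without 1 library, that without TGF-β replicate 2, and was lost without DMSO replicate 1 (FDR = 0.263), DMSO replicate 2 (0.154), TGF-β replicate 1 (0.0597), TGF-β+2APB replicate 1 (0.0898) or TGF-β+2APB replicate 2 (0.0886). The call for 2APB over TGF-β was kept in 8 of 10 settings and 2 of 6 such fits, and was lost without DMSO replicate 1 (FDR = 0.0961), DMSO replicate 2 (0.0959), TGF-β+2APB replicate 1 (0.233) or TGF-β+2APB replicate 2 (0.123).

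Nfatc3, a broadly expressed NFAT factor at chr8:106058840-106130537, held 7976 and 8128 normalized counts with DMSO, 8322 and 7871 after TGF-β, and 8588 and 8227 after TGF-β+2APB. All 6 values lay within a narrow band. Its log2 fold changes were 0.01, 0.05 and 0.06 in the order TGF-β over DMSO, TGF-β+2APB over TGF-β and TGF-β+2APB over DMSO, each with SE 0.07, and the smallest FDR was 0.502.

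Nfatc4, at chr14:55823144-55833943, was at the edge of detection. Its deposited counts were 2 and 0 with DMSO, 8 and 8 after TGF-β, and 8 and 2 after TGF-β+2APB, at the depth given above, and it was not tested. No difference between groups could be judged from these counts.

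Nfat5, the tonicity factor that drives genes for osmolyte uptake, spans chr8:107293470-107379517. It held 25406 and 28484 normalized counts with DMSO, 23093 and 35952 after TGF-β, and 25389 and 23930 after TGF-β+2APB. The TGF-β replicates included both the lowest and the highest of the 6 values. The log2 fold change was 0.13 (SE 0.21, FDR = 0.641) for TGF-β over DMSO, -0.26 (SE 0.21, FDR = 0.427) for TGF-β+2APB over TGF-β and -0.13 (SE 0.21, FDR = 0.633) for TGF-β+2APB over DMSO. A single TGF-β library decided the direction. Without TGF-β replicate 1 the first was 0.42 (FDR = 0.0145) and the second -0.54 (FDR = 0.0154), and without TGF-β replicate 2 they were -0.22 (FDR = 0.0765) and 0.09 (FDR = 0.408).

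Among the NFATc genes, the share that Nfatc2 held of their summed level per length went up with 2APB. Levels per length are given as RPKM over the longest annotated transcript. The summed RPKM of Nfatc1 to Nfatc4 was 33.7 ± 0.849 (SD, n = 2) with DMSO, 36.0 ± 1.91 with TGF-β and 45.6 ± 2.16 with TGF-β+2APB. Nfatc2 made up 10.3% ± 0.168 of it with DMSO, 8.57% ± 0.348 with TGF-β and 16.0% ± 1.31 with TGF-β+2APB. Nfatc3 went from 52.3% ± 0.622 to 49.2% ± 0.673 and 40.4% ± 0.692, although its own counts barely differed between groups, and Nfatc1 from 37.4% ± 0.468 to 42.2% ± 0.332 and 43.6% ± 0.652. With 2 libraries a group, these shares were not tested.

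Of the calcineurin subunits, the catalytic subunit gene Ppp3ca was higher with TGF-β and with TGF-β+2APB than with DMSO, while the regulatory subunit gene Ppp3r1 was nearly level. Ppp3ca, which encodes calcineurin Aα, spans chr3:136670124-136937727. It held 1464 and 1209 normalized counts with DMSO, 1847 and 4057 after TGF-β, and 4304 and 4007 after TGF-β+2APB. TGF-β replicate 1 lay near DMSO and TGF-β replicate 2 within the range of TGF-β+2APB. Ppp3ca rose 3.11-fold from DMSO to TGF-β+2APB (log2 fold change 1.64, SE 0.36, FDR = 0.0116), which held in all 10 other settings and 4 of 6 fits without 1 library, and was lost without DMSO replicate 1 (FDR = 0.0523) or DMSO replicate 2 (0.077). From DMSO to TGF-β it rose 2.21-fold (log2 fold change 1.14, SE 0.36, FDR = 0.0481), which held in 6 of 10 settings (FDR from 0.0045 to 0.0887) and 2 of 6 such fits. That log2 fold change was 1.61 without TGF-β replicate 1 (FDR = 0.000535) and 0.47 without TGF-β replicate 2 (FDR = 0.0273), and the call was lost without DMSO replicate 1 (FDR = 0.141), DMSO replicate 2 (0.211), TGF-β+2APB replicate 1 (0.0567) or TGF-β+2APB replicate 2 (0.0536). Between TGF-β+2APB and TGF-β it was 0.49 (SE 0.35, FDR = 0.375), which became 0.04 (FDR = 0.838) without TGF-β replicate 1 and 1.17 (FDR = 0.00384) without TGF-β replicate 2, so that the step with 2APB depended on which TGF-β library was used.

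The TGF-β replicates differed with the GC content of the genes. Over the quintile of genes with the lowest GC content, the median log2 difference of TGF-β replicate 2 minus replicate 1 was 0.39, in the next quintiles 0.04, -0.11 and -0.20, and over the quintile with the highest it was -0.21, whereas the medians of the DMSO and TGF-β+2APB pairs lay between -0.08 and 0.04 in every quintile. Ppp3ca (45.4% GC) lies in the quintile with a median of 0.04 and was itself 2.20 times higher in replicate 2, a log2 difference of 1.14, and 4.65% of 12718 genes differed by at least as much. Nfat5 (42.8% GC) was 1.56 times higher, a size reached by 13.01% of genes, and Ppp3cb (39.8% GC) 1.25 times. Rcan1 (54.5% GC), Nfatc1 and Nfatc2 lie in the quintile with a median of -0.20 and were 0.766, 0.917 and 0.876 times their replicate 1 values. The part of GC content in the replicate gap of single genes was not tested. After a correction for GC content, Ppp3ca rose by 1.22 with TGF-β (FDR = 0.0123) and by 1.80 with TGF-β+2APB over DMSO (FDR = 0.00166), and Nfat5 gave 0.28 with TGF-β (FDR = 0.122).

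**Figure D3:**
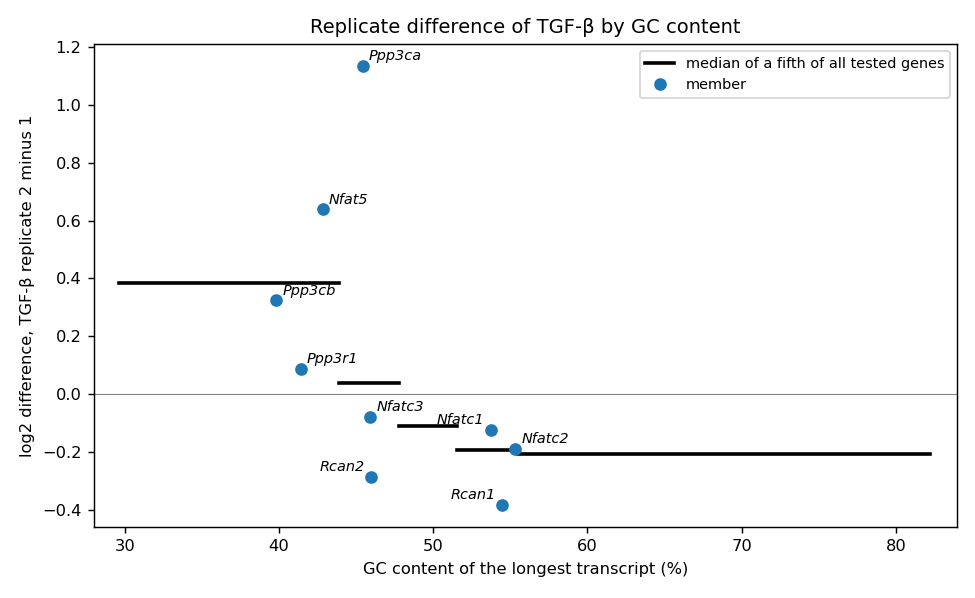
Log2 difference of TGF-β replicate 2 minus replicate 1 (y axis) against GC content of the longest transcript (x axis), for the 9 tested members (points) and as the median of each quintile of the genes (bars). The bars fall from 0.39 to -0.21, and Ppp3ca at 1.14 and Nfat5 at 0.64 lie well above the bar of their quintile.

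Ppp3cb, which encodes the catalytic subunit calcineurin Aβ at chr14:20499364-20546573, held 2471 and 2442 normalized counts with DMSO, 2600 and 3256 after TGF-β, and 3051 and 2952 after TGF-β+2APB. All 4 treated libraries lay above both DMSO libraries. No difference passed the test, with log2 fold changes of 0.25 (SE 0.12, FDR = 0.135) for TGF-β, 0.04 (SE 0.12, FDR = 0.856) for 2APB over TGF-β and 0.29 (SE 0.12, FDR = 0.0836) for TGF-β+2APB over DMSO. After the GC content correction the first and last were 0.51 (FDR = 0.00549) and 0.48 (FDR = 0.00518). Leaving out TGF-β replicate 1 gave 0.41 (FDR = 0.00326) for TGF-β and 0.30 (FDR = 0.00315) for TGF-β+2APB over DMSO. Leaving out TGF-β replicate 2 gave 0.21 (FDR = 0.0302) for 2APB over TGF-β and 0.29 (FDR = 0.00257) for TGF-β+2APB over DMSO.

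Ppp3r1, the calcium-binding regulatory subunit gene at chr11:17159263-17200375, held 10763 and 10785 normalized counts with DMSO, 10534 and 11181 after TGF-β, and 10461 and 9897 after TGF-β+2APB. The log2 fold changes were 0.01, -0.09 and -0.08 in the same order of comparisons, each with SE 0.07, and the smallest FDR was 0.385. Ppp3cc, the third catalytic subunit gene and not a member, held 334 and 390 normalized counts with DMSO, 538 and 525 after TGF-β, and 544 and 537 after TGF-β+2APB. It rose with TGF-β (log2 fold change 0.55, SE 0.13, FDR = 0.0187). Ppp3r2, the other regulatory subunit gene, was not analysed here.

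The ratio of Ppp3ca to Ppp3cb, in RPKM, was 0.477 and 0.398 in the DMSO libraries, 0.572 and 1.003 after TGF-β, and 1.14 and 1.09 after TGF-β+2APB. Ppp3cb was thus the more abundant catalytic transcript with DMSO, and Ppp3ca was slightly the more abundant with TGF-β+2APB. The summed RPKM of Ppp3ca, Ppp3cb and Ppp3cc was 14.0 ± 0.357 (SD, n = 2) with DMSO, 20.9 ± 5.83 with TGF-β and 24.5 ± 0.846 with TGF-β+2APB.

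Rcan1, the inhibitor of calcineurin that NFAT induces, had lower values in all 4 treated libraries than in both DMSO libraries, and no difference passed the test. The gene spans chr16:92391953-92470867 and held 2081 and 1959 normalized counts with DMSO, 1847 and 1415 after TGF-β, and 1501 and 1602 after TGF-β+2APB. The range with 2APB lay inside that of TGF-β alone. The log2 fold change was -0.31 (SE 0.14, FDR = 0.129) for TGF-β over DMSO, -0.07 (SE 0.14, FDR = 0.751) for TGF-β+2APB over TGF-β and -0.38 (SE 0.14, FDR = 0.0634) for TGF-β+2APB over DMSO, the last a difference of -23.2%. That last value passed in 4 of 10 other settings (FDR from 0.00427 to 0.0831), among them the GC content correction (-0.36, FDR = 0.0144), and without TGF-β replicate 1 (FDR = 0.00301) or TGF-β replicate 2 (FDR = 0.00379). TGF-β over DMSO passed with the GC content correction (-0.29, FDR = 0.0417) and without TGF-β replicate 1 (-0.51, FDR = 0.00378). For 2APB over TGF-β the sign depended on the TGF-β library, with 0.13 (FDR = 0.211) without replicate 1 and -0.25 (FDR = 0.0489) without replicate 2. The counts pool the transcripts from both starts shown above, so the NFAT-driven short transcript was not measured apart from the long one.

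Rcan2, a related inhibitor expressed mainly in brain and muscle, was low and rose with both treatments. It spans chr17:43801351-44039516 and held 27.5 and 18.6 normalized counts with DMSO, 83.8 and 68.5 after TGF-β, and 115 and 120 after TGF-β+2APB. The 3 groups did not overlap. It rose 3.29-fold with TGF-β (log2 fold change 1.72, SE 0.32, FDR = 0.00853) and 5.07-fold with TGF-β+2APB over DMSO (2.34, SE 0.32, FDR = 0.00199), and both calls held in all 10 other settings. The further step with 2APB was 0.63 (SE 0.30, FDR = 0.211). Of the fits without 1 library, the one without DMSO replicate 2 lost the call for TGF-β (1.46, FDR = 0.0687), and at deposited counts of 18 and 28 in DMSO the counting error is large.

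In order of RPKM with DMSO, Ppp3r1 led at 49.3 ± 0.0696 (SD, n = 2), followed by Nfat5 at 26.2 ± 2.12, Nfatc3 at 17.6 ± 0.235, Nfatc1 at 12.6 ± 0.475, Rcan1 at 11.4 ± 0.489, Ppp3cb at 8.39 ± 0.0691, Ppp3ca at 3.68 ± 0.497, Nfatc2 at 3.46 ± 0.144, Rcan2 at 0.0911 ± 0.0249 and Nfatc4 at 0.0034 ± 0.0048. Of these neighbours only Ppp3ca and Nfatc2 overlapped between libraries. With TGF-β, Ppp3cb overlapped with Rcan1 and Rcan1 with Ppp3ca. With TGF-β+2APB, Nfatc1 (19.9) stood above Nfatc3 (18.4), and Ppp3ca (11.4) above Ppp3cb (10.2) and Rcan1 (8.73). RPKM depends on the length used, and over the coding length Rcan1 stood above Nfatc3 with DMSO, at 35.1 against 32.6. With TGF-β+2APB, the coding length put Ppp3ca (34.8) and Nfatc3 (34.1) above Nfatc1 (33.8), and their ranges overlapped.

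**Figure D4:**
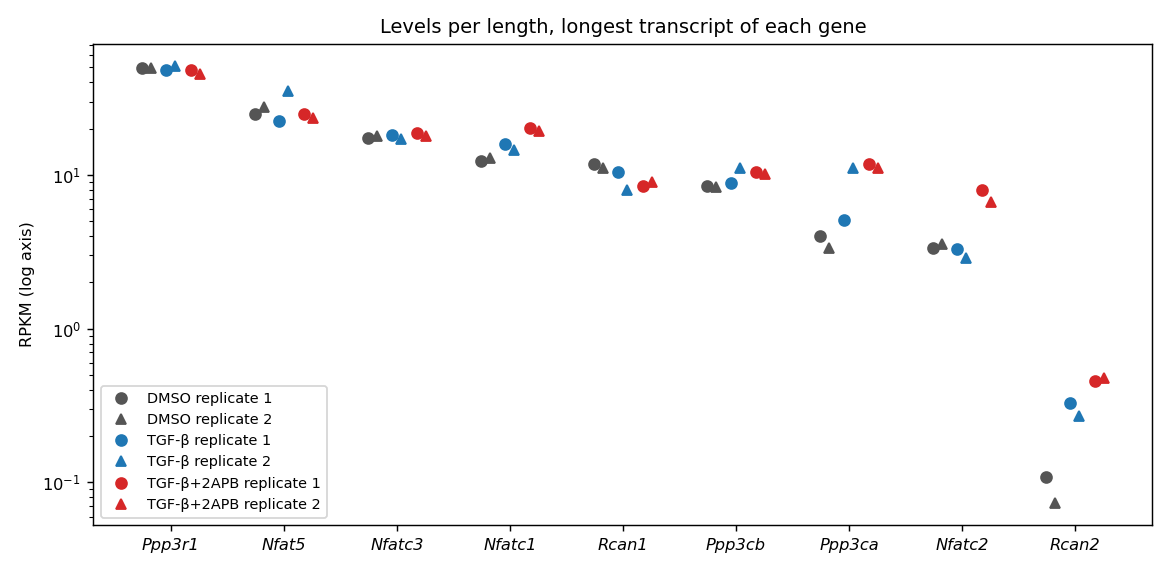
RPKM over the longest transcript (y axis, log scale) of the 9 tested members, ordered by their DMSO mean, with a colour per group and a marker per replicate. Rcan2 lies below 0.5 in all libraries, and Ppp3ca and Nfatc2, lowest of the others with DMSO, are higher with TGF-β+2APB.

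The genes whose pattern over the 6 libraries was most like that of Rcan1, by the root mean square difference of centred log2 CPM, were Fuca1 (0.00818), Slc25a11 (0.0228), Acsf2 (0.0242), Nucb1 (0.0288) and Got2 (0.0291), out of 13331 genes compared. Fuca1, for example, held 3391 and 3188 normalized counts with DMSO, 3027 and 2289 after TGF-β, and 2419 and 2616 after TGF-β+2APB. The pattern was common, since the gene at rank 100 lay at 0.0678 and 395 genes lay under 0.1.

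The lists that follow are read against all tested genes, of which 41.5% were called with TGF-β, 17.5% with 2APB over TGF-β and 52.8% with TGF-β+2APB over DMSO, and with so few genes per list nothing particular to a list is read from its count. Upstream of calcineurin, the calcium store sensors Stim1 and Stim2 fell with 2APB over TGF-β, and no ORAI channel gene was called there. Stim1 held 4556 and 4458 normalized counts with DMSO, 5055 and 4339 after TGF-β, and 3360 and 3646 after TGF-β+2APB, and fell by 0.42 on the log2 scale from TGF-β to TGF-β+2APB (SE 0.10, FDR = 0.0374). Stim2 rose with TGF-β (log2 fold change 0.45, SE 0.07, FDR = 0.00397), from 3229 and 3025 to 4289 and 4250, and fell by 0.36 with 2APB (SE 0.07, FDR = 0.0202), to 3279 and 3356. Orai3 fell by 0.64 with TGF-β (SE 0.12, FDR = 0.00781), from 2359 and 2233 to 1628 and 1318. Of the 5 STIM and ORAI genes, 1 was higher and 1 lower with TGF-β, 0 higher and 2 lower with 2APB over TGF-β, and 0 higher and 2 lower with TGF-β+2APB over DMSO, with medians of 0.09, -0.17 and -0.09. DESeq2, and edgeR at an unadjusted p under 0.05, gave 0 and 1 higher in the last 2 of these. The 2APB calls of Stim1 and Stim2 held in 7 and 8 of 10 settings.

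Of 10 listed regulators and anchors of calcineurin, 8 were tested. With TGF-β, 2 were higher and 2 lower (median -0.05), among them Calm3, a calmodulin gene, which fell by 0.75 (SE 0.11, FDR = 0.0038) from 31489 and 30280 to 20326 and 16485 normalized counts, and Cabin1, an inhibitor of calcineurin, which rose by 0.44 (SE 0.08, FDR = 0.0066) from 5602 and 5888 to 8049 and 7502. With 2APB over TGF-β, 0 were higher and Rcan3, the third RCAN gene, was lower (median -0.14), whereas edgeR gave 2 higher and 2 lower at an unadjusted p under 0.05 and DESeq2 called 1 higher and 1 lower. Rcan3 had 2775 and 2651 in DMSO, 2860 and 2517 after TGF-β, and 1584 and 1969 after TGF-β+2APB, and fell by 0.60 (SE 0.13, FDR = 0.0303). With TGF-β+2APB over DMSO, 2 were higher and 3 lower (median -0.11). Both immunophilin genes rose with TGF-β. These were Fkbp1a (log2 fold change 0.43, SE 0.12, FDR = 0.0324) and Ppia (0.30, SE 0.07, FDR = 0.0215), whose products carry FK506 and cyclosporin to calcineurin, and neither was called in the other comparisons by edgeR or DESeq2, with 1 lower for 2APB over TGF-β at an unadjusted p under 0.05.

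Downstream of calcineurin, NFAT is sent back to the cytoplasm by kinases such as GSK3, casein kinase and the DYRK family. Of the 10 genes for kinases and retention of NFAT, 8 were tested, and 12.5%, 12.5% and 37.5% (1, 1 and 3) were called in the 3 comparisons, with medians of 0.04, 0.03 and 0.15. Homer3, a scaffold that competes with calcineurin for NFAT, rose with TGF-β (log2 fold change 0.55, SE 0.07, FDR = 0.00181), from 2956 and 2872 to 4354 and 4171. Dyrk2, an NFAT kinase gene, held 4271 and 4175 with DMSO, 3411 and 4545 after TGF-β, and 6280 and 5816 after TGF-β+2APB, and rose by 0.60 with 2APB over TGF-β (SE 0.14, FDR = 0.0398), in 6 of 10 other settings.

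Of 16 listed genes that NFAT activates in other cell types, 9 were tested. With TGF-β, 2 rose and 2 fell (median -0.57), and these 44.4% lie near the 41.5% called among all genes. Ptgs2, which encodes cyclooxygenase-2, went from 273 and 304 to 2392 and 4393 normalized counts (log2 fold change 3.56, SE 0.34, FDR = 0.000836), and Csf2, the cytokine GM-CSF, from 37.3 and 31.0 to 193 and 183 (2.45, SE 0.28, FDR = 0.00159). Egr3, an early response factor, was the only gene of the list that edgeR called with 2APB over TGF-β, and DESeq2 also called Acp5. Egr3 held 195 and 178 with DMSO, 39.0 and 33.2 after TGF-β, and 71.3 and 101 after TGF-β+2APB, so that it fell by 2.36 with TGF-β (SE 0.29, FDR = 0.002) and rose by 1.25 with 2APB (SE 0.29, FDR = 0.0371), still below DMSO (-1.11, SE 0.28, FDR = 0.0181). With TGF-β+2APB over DMSO, 3 were higher and 3 lower (median 0.16), and with 2APB over TGF-β the median was 0.65. Acp5, with 2 and 232 deposited counts in the TGF-β+2APB replicates, Tnf, with 0 and 66, and Ctsk, with 24 and 50, were higher in replicate 2, the library with the high leukocyte markers, whose part was not tested. Without that library 6 of the list were tested, 0 were called with 2APB over TGF-β and the median was 0.24, and over DMSO 2 were higher and 3 lower with a median of -0.62.

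Among other calcineurin substrates, 6 of 7 were tested. With TGF-β, Mef2d rose by 0.42 (SE 0.08, FDR = 0.00863) and Crtc2 by 0.38 (SE 0.07, FDR = 0.0071), both transcriptional regulators, and none fell. None was called with 2APB over TGF-β by edgeR, where 0 were higher and 3 lower at an unadjusted p under 0.05 and DESeq2 called 1 lower, and 1 was lower with TGF-β+2APB over DMSO. The medians were -0.02, -0.13 and 0.04. Of 6 osmotic targets of NFAT5, 4 were tested, with 1 higher and 2 lower with TGF-β, 1 higher and 0 lower with 2APB over TGF-β, and 2 higher and 2 lower with TGF-β+2APB over DMSO (medians -0.24, 0.14 and 0.05). Slc38a2, an amino acid transporter, rose at both steps, from 12084 and 12305 with DMSO to 22191 and 24149 with TGF-β (log2 fold change 0.93, SE 0.09, FDR = 0.000783) and 34653 and 30944 with TGF-β+2APB (0.50, SE 0.09, FDR = 0.0169). Slc5a3, the myo-inositol transporter, fell by 0.56 with TGF-β (SE 0.17, FDR = 0.047), from 3276 and 3609 to 1925 and 2756.

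The calls of these list genes with 2APB over TGF-β rested on few libraries. Of the 6 so called (Stim1, Stim2, Rcan3, Dyrk2, Egr3 and Slc38a2), 0 stayed called without DMSO replicate 1 (FDR from 0.0661 to 0.11 with edgeR) and 0 without DMSO replicate 2 (0.0667 to 0.11), both of which serve that comparison only through the shared spread. Without TGF-β replicate 1 all 6 were called, without TGF-β replicate 2 all but Egr3, without TGF-β+2APB replicate 1 only Egr3 and without TGF-β+2APB replicate 2 only Rcan3 and Slc38a2. Of the 15 named as called with TGF-β over DMSO, 7 were called without DMSO replicate 1 and 7 without DMSO replicate 2, and Calm3, Csf2, Egr3, Homer3, Ptgs2 and Slc38a2 were called in both. All 15 were called whichever TGF-β library was left out, and 12 whichever TGF-β+2APB library was left out, which lost Fkbp1a, Ppia and Slc5a3.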

How the data were processed

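The authors aligned 50 bp single-end reads with TopHat, counted them on genes with featureCounts and deposited a table of counts. All deposited counts were even, and the smallest above 0 was 2. The library totals also lay above the average number of reads per sample that the study gives. The counts may thus not equal numbers of reads, and the cause was not tested. Per the labels, processing used mm10, FastQC 0.11.2, TopHat2 2.0.13 and DESeq2 1.6.1, whereas the study's methods name hg19. The annotation, strand setting and treatment of reads with several alignments are not given in the sources used here, so counts of genes that overlap others or share sequence are uncertain. Of 18512 entries, 25 bear dates for names and stayed unnamed.

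The analysis used edgeR 4.0.16 in R 4.3.3, with TMM scaling, a minimum mean of 20 normalized counts, 1 quasi-likelihood model of 3 groups and 6 libraries, F-tests and Benjamini-Hochberg FDR over 13353 genes. The common biological coefficient of variation was 17.4%. SE was taken as log2 fold change / √F. The procedure was also run on simulated counts with the same spread for every gene and no GC trend. The data differ in both respects, so that run cannot speak for the calls above. Lengths, GC content and positions came from GENCODE on GRCm38, to which 17551 entries (94.8%) matched by symbol. RPKM divides the TMM-scaled counts by that length, and replicate differences used a pseudocount of 1.

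The members and lists were chosen with earlier results of these data known. Named genes are the members, list genes called between TGF-β+2APB and TGF-β, at most 2 per list with the largest called change with TGF-β, the 5 genes most like Rcan1, and markers, of which 1 is not reported here. The 10 other settings were RLE or library size scaling, DESeq2 1.42.0, no filter, at least 10 counts in every library, a replicate block, the same block with exchanged numbers, only the 4 libraries compared, halved counts and a GC content correction (loess, span 0.5). The last and the exchanged block were added after the data were seen. A stricter FDR of 0.01, a minimum log2 change of 1 in size and fits that left out 1 library at a time were also tried.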

Additional observations from a re-analysis of the deposited data

How the results depend on the processing

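With 2 libraries a group, the shared spread sets which small changes pass, and a library left alone in its group is assumed to vary like the others. Of 3 members called for TGF-β against DMSO, 1 was called with no filter, with the replicate block, with only the 4 libraries compared or at an FDR of 0.01, 5 were called with the GC content correction, and 0 to 5 when a library was left out. Of 2 called for TGF-β+2APB against TGF-β, 1 was called with the replicate block, with only the 4 libraries, at an FDR of 0.01 or with a minimum log2 change of 1, and 1 to 5 without a library. For TGF-β+2APB against DMSO, 4 were called, also with the replicate block, and 3 to 6 without a library. The replicate differences of the 3 groups did not all go the same way. Their correlations across 12718 genes were 0.15 for DMSO with TGF-β, -0.46 for DMSO with TGF-β+2APB and -0.26 for TGF-β with TGF-β+2APB. These values cannot show whether the samples were paired under other numbers. With the TGF-β+2APB numbers exchanged, 2, 2 and 5 members were called. Of the 5 genes most like Rcan1, 1 was shared once differences were divided by the SD.

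Over 270 log2 fold changes of members under other settings, 245 kept direction and side of the threshold, 8 newly passed, 10 no longer passed and 7 changed sign. Under these settings, signs changed in values near 0. With library size scaling these were Nfatc3 (-0.0216) and Ppp3r1 (-0.0171) for TGF-β, Ppp3cb (-0.0015) for 2APB over TGF-β and Nfatc3 (-0.0016) for both agents over DMSO. With the GC content correction they were Ppp3cb (-0.0277) for 2APB over TGF-β, and Nfat5 (0.0525) and Ppp3r1 (0.10) for both agents over DMSO. Across the fits without a library, the values that changed sign ran for TGF-β from -0.0266 to 0.0475 in Nfatc3, from -0.223 to 0.422 in Nfat5 and from -0.0324 to 0.0597 in Ppp3r1, and for 2APB over TGF-β from -0.0073 to 0.0971 in Nfatc3, from -0.542 to 0.0947 in Nfat5, from -0.116 to 0.207 in Ppp3cb and from -0.251 to 0.134 in Rcan1. The ends of these ranges came from the fits without TGF-β replicate 1 or TGF-β replicate 2. Only the -0.0073 of Nfatc3 came from the fit without TGF-β+2APB replicate 1. Why the TGF-β libraries differ was not tested.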
